A study of Rattus norvegicus with 11 samples.

Results

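RF, labelled as rat endothelial fibroblasts, were profiled on 1 array at base line and on 1 array after treatment with exosomes of ASTspan8 cells. Exosomes are small vesicles that cells release. The comparison rests on these 2 of 11 arrays in the series, taken by their titles, and no measured value was used to choose them. AS cells come from a pancreatic adenocarcinoma of the rat, and ASTspan8 cells are AS cells expressing tetraspanin 8 (Tspan8), a membrane protein of vesicles. A further RF array, after exosomes of AS cells without Tspan8, served as the nearest reference. Arrays labelled as endothelial cells (EC) under the same conditions, with 1 control array, 1 after AS exosomes and 2 after ASTspan8 exosomes, served as the other. The remaining 4 arrays held RNA of ASTspan8 exosomes (2 arrays) and the tumour line ASML as wild type and with CD44 knocked down (1 array each). All lines were grown in serum-containing RPMI with G418, controls included. The dose of exosomes, the length of treatment and the number of cultures behind each array are not given in the sources used here. With 1 array a group, a difference between RF arrays has no replicate check, carries no p-value and cannot be told apart from a difference between cultures.

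Fibroblasts make and organise the extracellular matrix, chiefly collagens, elastic fibres and small proteoglycans that bind collagen. Cells that sense a shortage of amino acids, misfolded protein in the endoplasmic reticulum (ER) or viral RNA slow general translation by phosphorylating the initiation factor eIF2, while the transcription factor ATF4 is translated more. ATF4 then switches on amino acid carriers, serine and one-carbon enzymes, tRNA synthetases and, through Ddit3 (CHOP), genes of cell death and growth arrest. Interferon genes form a separate programme, driven by STAT and IRF factors through the interferon-stimulated response element.

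Values are log2 of the deposited intensity, so a difference of 1 is 2-fold, and the lowest level after flooring is 5.96. A gene is represented by its brightest probe, and 11069 genes were kept as bright enough in at least 1 group. ASTspan8 exosomes gave 571 genes at least 2-fold higher than control (5.16%) and 581 at least 2-fold lower (5.25%), with a median over all genes of 0.02. In probes these were 864 of 18619 higher (4.64%) and 843 lower (4.53%), of which 209 and 198 carried no gene name. After AS exosomes, 111 genes were at least 2-fold higher (1%) and 129 lower (1.17%) than the same control array. The duplicate EC arrays after ASTspan8 exosomes differed by at least 2-fold in 4 of 11069 genes and the duplicate exosome arrays in 185, which are the only measures of array-to-array difference here.

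The identity of the RF control array was checked first, because its source field names endothelial cell lines while its title and cell type name RF. By the root mean square of log2 differences over all kept probes, it lay 0.391 from RF after AS exosomes, its nearest array, and 0.5999 from the EC control array. RF after ASTspan8 exosomes stood farthest out: it lay 0.619 from RF control and 0.604 from RF after AS exosomes, whereas RF control lay 0.508 from EC after AS exosomes. Of 20 fibroblast markers, 15 were above log2 9 on the RF control array, 14 after AS exosomes and 15 after ASTspan8 exosomes. Of 21 endothelial markers, 3, 2 and 4 were above that level. The arrays labelled EC showed the same make-up, with 15 or 16 of 20 fibroblast and 2 to 4 of 21 endothelial markers above it, so the data go against the EC label and EC is used here only as the label of those arrays. The endothelial junction proteins Pecam1 (6.79, 7.04 and 6.53 on the control, AS and ASTspan8 arrays) and Cdh5 (7.96, 7.93 and 7.98) were dim, and the receptors Kdr and Tek were at most 6.68 on each. The RF arrays thus carried fibroblast markers, and the defining endothelial markers were near the floor or dim. Epithelial Epcam and Cdh1 were at most 6.19 on the 3 arrays, against 14.24 and 14.26 in ASML wild type. Of 8 leukocyte markers bright enough to keep, 4 were above control and 4 below, with a median of -0.065. The lysozyme gene Lyz2 read 6.35, 6.16 and 8.17 and the lysosomal protein Cd68 8.10, 8.04 and 9.28, whereas Cd14 stood at -0.85 and Aif1 at -0.40 (these 4 picked after their values were seen). Ptprc, too dim to keep, was near the floor on each array, at 6.31, 6.28 and 6.25. The part of other cells in the results was not tested.

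**Figure D1:**
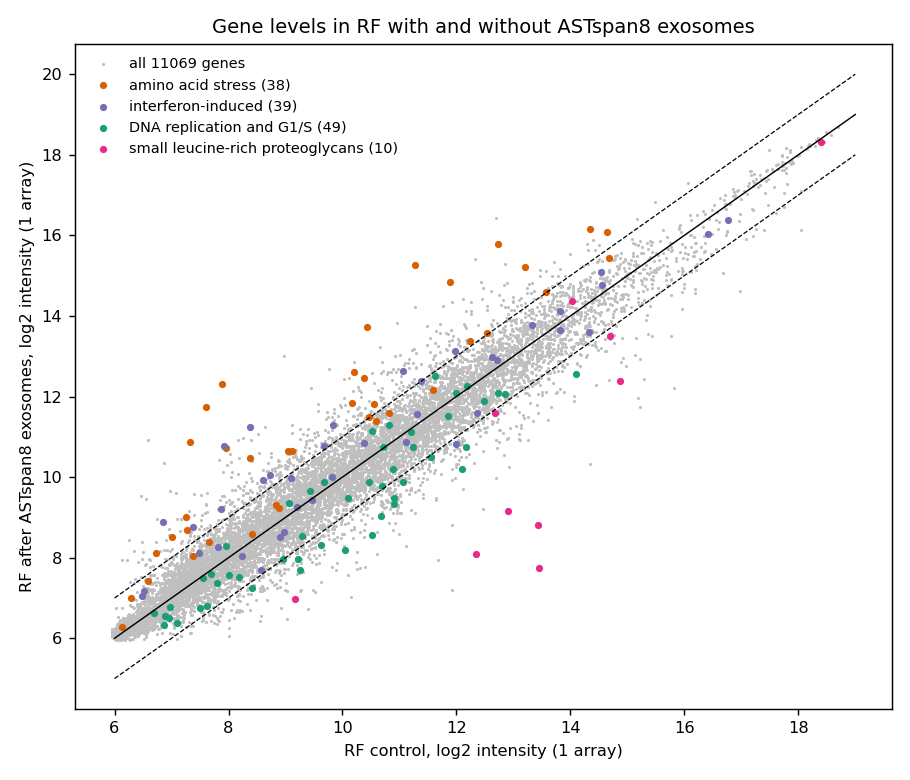
Level of each gene on the RF control array (x axis) and on the RF array after ASTspan8 exosomes (y axis), both as log2 intensity, 1 array each. The solid line marks equal levels and the dashed lines 2-fold. Amino acid stress genes (orange) lie above the solid line, and most small leucine-rich proteoglycans (pink) lie far below it.

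Genes of the amino acid stress programme were the most prominent among those higher after ASTspan8 exosomes. All 38 measured members of the list were above control, 26 of them by at least 2-fold, against 5.16% of all genes. The list median was 1.43, and none was 2-fold lower. Gdf15, a secreted stress cytokine, read 7.88 on the control array, 9.53 after AS exosomes and 12.31 after ASTspan8 exosomes, a difference of 4.43 (21.6-fold) against control. The pseudokinase Trib3, a feedback inhibitor of ATF4, read 7.60, 9.06 and 11.73 in the same order. Ppp1r15a (GADD34), which guides the phosphatase that reactivates eIF2, read 11.27, 12.47 and 15.27. In each of these 3 genes the AS array lay between control and ASTspan8, and the ASTspan8 array stood more than 2.5 above it. The transcription factor Atf3 read 7.33, 8.34 and 10.87. Ddit3, which encodes CHOP, read 12.73, 13.18 and 15.79. Mthfd2, a mitochondrial one-carbon enzyme, read 10.43, 11.72 and 13.73, and its 3 probes gave differences between 2.25 and 3.30. Thus regulators and enzymes stood higher alike.

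Other members of the programme, picked here after their values were seen to show its branches, covered uptake and synthesis of amino acids. Atf4 itself, whose protein is set mainly by translation, read 14.35 on the control array, 15.16 after AS exosomes and 16.17 after ASTspan8 exosomes. Slc7a5 and Slc3a2 form the carrier that brings leucine and other large amino acids into the cell: Slc7a5 read 7.96, 9.08 and 10.73, and Slc3a2 read 11.89, 12.72 and 14.85. The serine enzymes stood less far above control than the carrier. Phgdh, which starts serine synthesis, read 13.21, 14.19 and 15.22, and Shmt2, which turns serine to glycine in mitochondria, read 10.38, 11.67 and 12.45. At the low end of the list stood Fgf21 and Jdp2 (0.16 each) and Chac1, a glutathione-degrading enzyme (0.49). Asparagine synthetase (Asns) read 6.29, 6.60 and 6.99, so its 0.70 was measured close to the floor. The cystine carrier Slc7a11 and the proline enzyme Pycr1 had a second probe that showed far less, with 0.15 against 1.42 and 0.22 against 2.40.

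Cytosolic aminoacyl-tRNA synthetases, which charge tRNAs with their amino acids, showed the highest median of the 32 lists, 1.60. Of 18 measured, 12 were at least 2-fold higher, none was 2-fold lower, and 2 were below control, Qars1 (-0.43) and Kars1 (-0.09), named after their values were seen. Wars1, the tryptophan enzyme, which interferon-gamma also induces, read 12.33 on the control array, 13.15 after AS exosomes and 15.42 after ASTspan8 exosomes, with 2.59 on its second probe. Aars1, for alanine, read 12.85, 13.67 and 15.28. Cars1, for cysteine, read 9.57, 10.66 and 11.82. The remaining named members, Mars1 (2.09), Yars1 (1.93) and Nars1 (1.80), stood close behind. After AS exosomes the median of this list was 0.54 and that of the amino acid stress list 0.59.

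Promoters of these 2 lists were searched for the amino acid response element, TGATGNAA on either strand (TTNCATCA as its reverse complement), in the 250 bases before and 50 after each RefSeq gene start (GRCr8). Of 27457 promoters, 3.82% held it. Of the tRNA synthetases with a promoter here, 7 of 17 did (41.2%), and all 7 were among the 12 that were at least 2-fold higher. Of the amino acid stress genes with a promoter here, 9 of 31 did (29%), 4 of them among the 21 at least 2-fold higher. The promoters of Trib3 (chr3:161275484-161275783, minus strand) and Aars1 (chr19:55908232-55908531, plus strand) are shown because they belong to the strongest members that hold the element. The Aars1 promoter was added after the values were seen. Capitals mark the matches, all of them in the reverse orientation. They begin 21 bases before the start in Trib3 and 112 bases before it in Aars1, which has a second match just past the start. A match is a description of letters, not of binding.
Trib3: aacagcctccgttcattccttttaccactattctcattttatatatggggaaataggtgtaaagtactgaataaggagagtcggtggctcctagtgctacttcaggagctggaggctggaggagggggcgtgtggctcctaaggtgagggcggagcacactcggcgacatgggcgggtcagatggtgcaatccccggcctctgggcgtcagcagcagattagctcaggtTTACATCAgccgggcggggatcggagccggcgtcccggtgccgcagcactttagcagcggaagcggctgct
Aars1: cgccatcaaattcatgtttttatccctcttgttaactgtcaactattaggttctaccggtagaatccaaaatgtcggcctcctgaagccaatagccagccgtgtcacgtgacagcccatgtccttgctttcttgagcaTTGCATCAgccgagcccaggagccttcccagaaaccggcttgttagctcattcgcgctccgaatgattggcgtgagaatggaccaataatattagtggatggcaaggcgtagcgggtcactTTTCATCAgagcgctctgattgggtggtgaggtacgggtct

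The ER branch differed from the amino acid branch. Of 24 ER chaperones and unfolded protein response genes, 4 were at least 2-fold higher and none lower, and the median was -0.11, with 13 members below control. The exceptions were the sensor Atf6 (10.03, 11.17 and 12.43 on the control, AS and ASTspan8 arrays, and 1.70 on its other probe), Sdf2l1 (11.09, 12.84 and 12.83), Herpud1 (12.85, 13.07 and 14.21) and the chaperone Hspa5, or BiP (14.44, 15.49 and 15.63). Sdf2l1 and Hspa5 were as high after AS exosomes as after ASTspan8 exosomes, within 0.14. Protein disulfide isomerases, which fold secreted proteins, stood below control, with Pdia3 at -0.93 and Pdia6 at -0.84 (both picked after their values were seen). Cytosolic heat shock chaperones showed 1 of 15 members 2-fold higher and 1 lower (6.67% each, against 5.16% and 5.25% of all genes). The inducible Hspa1b read 10.67, 11.12 and 12.58, and the constitutive Hspa8 read 17.26, 17.18 and 16.17, with its 4 probes between -1.21 and -0.88.

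Some genes tied to growth arrest were higher too. Of 26 p53 targets, Gadd45 genes and cell cycle inhibitors, 8 were at least 2-fold higher (30.8%, against 5.16% of all genes). The list held 1 that was lower (3.85%, against 5.25%), and its median was 0.53. The Gadd45 proteins bind cell cycle and stress kinases. Gadd45g read 8.98 on the control array, 10.23 after AS exosomes and 13.01 after ASTspan8 exosomes. Gadd45a read 11.27, 11.26 and 14.22, so that AS exosomes left it level with control. Gadd45b read 12.26, 12.50 and 14.34. Tp53inp1, a p53 partner of cell death and autophagy, read 8.53, 9.0 and 10.61. The BH3-only death genes Pmaip1 (NOXA; 6.49, 7.46 and 8.40) and Bbc3 (PUMA; 11.94, 12.46 and 13.51) were higher, as was the survival gene Bcl2l1 (13.36, 13.84 and 14.63). The 3 probes of Bcl2l1 spread from 0.53 to 1.27. It was the 1 of 11 members of the BCL2 family list at least 2-fold apart (9.09%, against 5.16% of all genes). Pmaip1 and Bbc3, of the same family, were counted in the p53 list instead. The inhibitor Cdkn1a (p21) stood at 0.65 on its brightest probe and 1.31 on its second. The inhibitors Cdkn1c (0.24) and Cdkn2b (0.05) stood near control (all picked after their values were seen).

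Immediate early genes, transcribed soon after a stimulus without new protein synthesis, were mixed. Of 30, 8 (26.7%) were at least 2-fold higher and 2 (6.67%) lower, against 5.16% and 5.25% of all genes, with a median of 0.41. Ier5 read 12.12 on the control array, 12.98 after AS exosomes and 14.43 after ASTspan8 exosomes, and Klf2 read 7.51, 7.90 and 9.56. Fos, a subunit of the AP-1 factor, read 6.50, 8.87 and 8.15, and Junb read 14.29, 15.67 and 15.78. Fos was thus highest after AS exosomes, Junb was about as high after either treatment, and after AS exosomes the list median was 0.63. Klf10 (1.86) and the growth factor Hbegf (1.54) were also higher. NF-kappaB subunits and feedback genes showed 1 of 11 at least 2-fold apart, Nfkbiz (9.13, 9.48 and 7.87), which was lower (9.09%, against 5.25% of all genes).

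**Figure D2:**
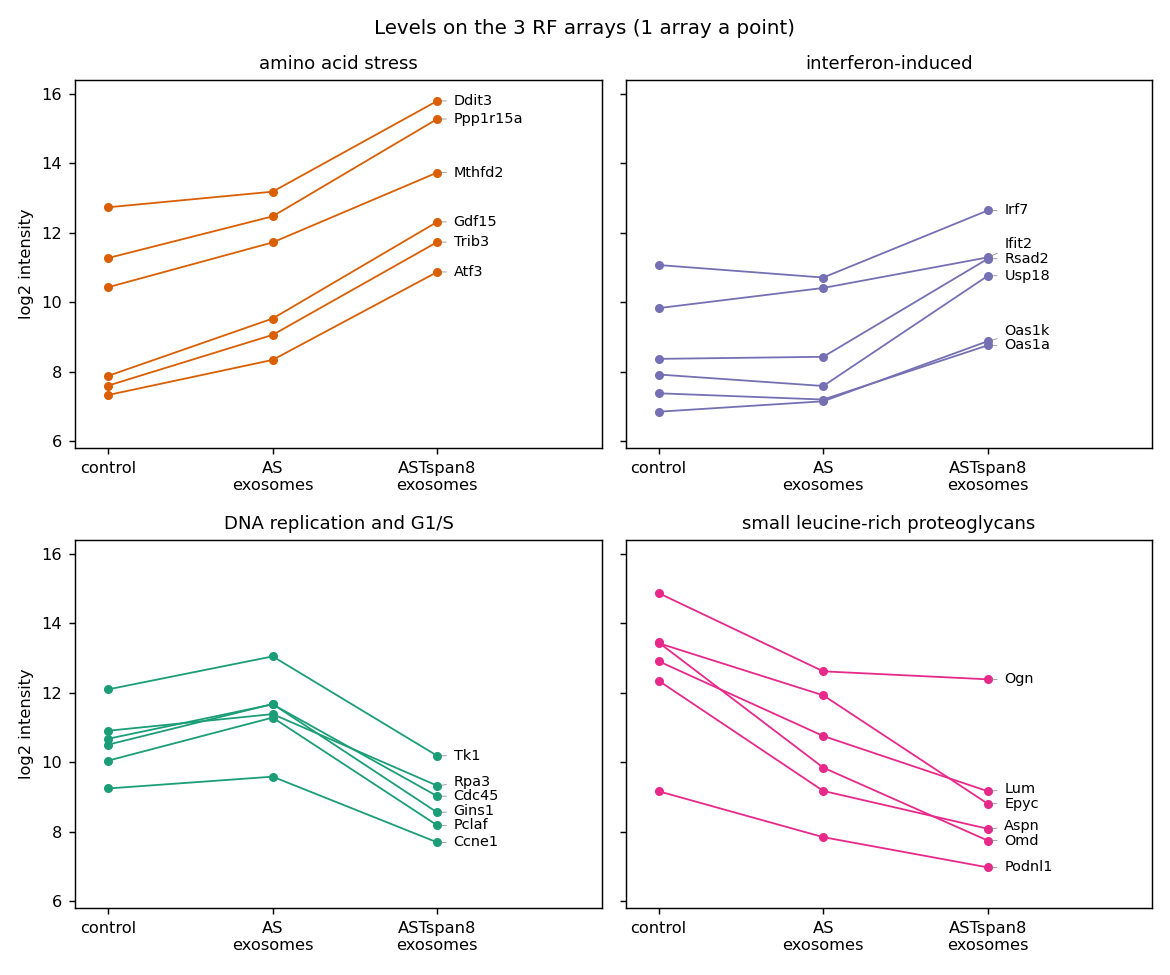
Log2 intensity of the 6 named members of 4 lists on the RF control array, after AS exosomes and after ASTspan8 exosomes, each point 1 array. Amino acid stress genes step up at both treatments, interferon-induced genes stand higher after ASTspan8 exosomes, DNA replication genes stand highest after AS and lowest after ASTspan8 exosomes, and proteoglycans step down at both.

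Interferon-induced genes stood higher after ASTspan8 exosomes and close to control after AS exosomes. Of 39 measured, 12 were at least 2-fold higher and 1 lower, with a median of 0.44, against -0.09 after AS exosomes. Rsad2 (viperin), an antiviral enzyme, read 8.37 on the control array, 8.43 after AS exosomes and 11.25 after ASTspan8 exosomes. Usp18, which removes Isg15 from proteins and damps interferon receptor signalling, read 7.92, 7.59 and 10.76, and 2.15 on its other probe. The oligoadenylate synthetase Oas1k read 6.85, 7.15 and 8.88. For these 3 genes the 2 lower arrays lay within 0.35 of each other. Irf7, the transcription factor that amplifies interferon production, read 11.07, 10.71 and 12.64. Ifit2, which blocks translation of foreign RNA, read 9.83, 10.41 and 11.29, and Oas1a read 7.38, 7.20 and 8.76. The programme was uneven: Mx1 and Mx2 (0.20 each) and Cxcl10 (0.26) stood near control, and the ubiquitin ligase Trim25 (-1.17) stood below it (the last 4 genes were picked after their values were seen).

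Of 14 genes of MHC class I antigen processing, which interferon also induces, 2 were at least 2-fold higher and 1 lower. Those were 14.3% and 7.14% of the list, against 5.16% and 5.25% of all genes. The peptide transporter Tap1 read 9.36 on the control array, 9.21 after AS exosomes and 10.83 after ASTspan8 exosomes, and its partner Tapbp read 10.31, 10.47 and 11.35. The immunoproteasome subunit Psmb10 went the other way, with 14.12, 14.69 and 12.80. Among 12 complement genes and Lcn2, Cfb of the alternative pathway (9.31, 10.12 and 11.08) and C4a (10.97, 11.65 and 12.68) were at least 2-fold higher and C1r of the classical pathway (15.99, 15.37 and 14.80) lower. That made 16.7% of this list higher and 8.33% lower. Ifi27l2b, a small interferon-inducible protein outside the list, read 12.70, 13.35 and 16.44, and its second probe gave 4.31.

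The interferon-stimulated response element, GAAA and GAAA with any 2 bases between them on either strand, was found in 3.77% of 27457 promoters and in 20 of 32 promoters of the interferon list (62.5%). Of the 7 members with a promoter here that were at least 2-fold higher, 6 held it. Rsad2 (chr6:48788071-48788370, minus strand) and Irf7 (chr1:205799974-205800273, minus strand) are shown as the named members with the largest differences that hold the element. The match, in capitals, begins 147 bases before the start in Rsad2 and 69 bases before it in Irf7, with the same letters in both.
Rsad2: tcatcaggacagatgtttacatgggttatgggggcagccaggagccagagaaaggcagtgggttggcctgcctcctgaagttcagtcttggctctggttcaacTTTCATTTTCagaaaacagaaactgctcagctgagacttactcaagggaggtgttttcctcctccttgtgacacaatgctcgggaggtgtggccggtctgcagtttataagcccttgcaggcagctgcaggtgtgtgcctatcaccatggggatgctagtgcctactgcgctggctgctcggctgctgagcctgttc
Irf7: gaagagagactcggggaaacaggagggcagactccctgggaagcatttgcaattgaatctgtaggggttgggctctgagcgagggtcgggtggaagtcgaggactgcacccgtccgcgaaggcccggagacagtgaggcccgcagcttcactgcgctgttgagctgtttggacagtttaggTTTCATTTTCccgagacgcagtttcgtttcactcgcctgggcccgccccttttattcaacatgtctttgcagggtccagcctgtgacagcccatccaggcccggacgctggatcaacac

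Genes of proliferation were lower after ASTspan8 exosomes. Of 39 mitosis and kinetochore genes, 26 were at least 2-fold lower, against 5.25% of all genes, none was 2-fold higher and all 39 were below control, with a median of -1.14. Of 49 DNA replication and G1/S genes, 14 were at least 2-fold lower and none higher, with a median of -0.61 and 10 members above control. After AS exosomes both lists had a median of 0.59, and all 49 replication genes were above the same control array. The ASTspan8 array lay below the AS array for all 39 mitosis genes (median -1.68) and for 46 of 49 replication genes (median -1.29). Fewer dividing cells and less RNA in each dividing cell cannot be told apart in such bulk samples.

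Among replication genes, Gins1, a subunit of the replicative helicase, read 10.51 on the control array, 11.68 after AS exosomes and 8.56 after ASTspan8 exosomes. Tk1, the S-phase thymidine kinase, read 12.10, 13.05 and 10.19. Pclaf, which binds the sliding clamp PCNA, read 10.05, 11.29 and 8.19. Each of these genes was highest after AS exosomes and lowest after ASTspan8 exosomes. The helicase subunit Cdc45 (-1.65), the single-strand binding subunit Rpa3 (-1.58) and cyclin E1 (Ccne1, -1.55) followed. Not every member was lower: Pcna stood at 0.07, Mcm2 at 0.63 and the polymerase subunit Pold2 at 0.90, while the neighbouring helicase subunits Mcm3 (-1.43), Mcm5 (-1.32) and Mcm6 (-1.25) were lower (these 6 genes were picked after their values were seen).

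Among mitosis genes, the motor Kif20a read 11.98 on the control array, 12.39 after AS exosomes and 9.99 after ASTspan8 exosomes. Cdca3, which promotes mitotic entry, read 12.31, 13.19 and 10.34. Topoisomerase Top2a read 10.95, 11.47 and 9.19, although its second probe gave -0.95. The centromere protein Cenpf (-1.69) and the cyclins Ccna2 and Ccnb2 (-1.66 each) followed, and the checkpoint kinase Bub1 (-0.26, picked after its value was seen) was nearest to control. Of 11 cyclins and kinases of G1, which act earlier, 1 was at least 2-fold lower (9.09%, against 5.25% of all genes). This was Cdk2 (9.50, 10.49 and 8.37), and the list median was -0.13. Cdk6 read 9.79, 10.09 and 8.82.

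The E2F site, searched as TTTCCCGC or TTTGGCGC on either strand, was found in 1.53% of 27457 promoters, in 14 of 41 promoters of the replication list (34.1%) and in none of 32 promoters of the mitosis list. Of the 10 replication genes with a promoter here that were at least 2-fold lower, 6 held it. Gins1 (chr3:160184670-160184969, plus strand) and Pclaf (chr8:75315467-75315766, plus strand) are shown as the named members with the largest differences that hold it. In Gins1 both orientations of TTTGGCGC overlap in the capitals, beginning 25 bases before the start, and in Pclaf the match begins 45 bases before it.
Gins1: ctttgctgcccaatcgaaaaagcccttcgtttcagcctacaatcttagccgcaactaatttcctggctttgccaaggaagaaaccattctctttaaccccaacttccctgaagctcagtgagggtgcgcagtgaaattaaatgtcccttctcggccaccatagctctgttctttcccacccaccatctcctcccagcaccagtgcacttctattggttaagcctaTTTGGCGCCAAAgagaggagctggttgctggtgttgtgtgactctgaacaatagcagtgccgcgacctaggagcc
Pclaf: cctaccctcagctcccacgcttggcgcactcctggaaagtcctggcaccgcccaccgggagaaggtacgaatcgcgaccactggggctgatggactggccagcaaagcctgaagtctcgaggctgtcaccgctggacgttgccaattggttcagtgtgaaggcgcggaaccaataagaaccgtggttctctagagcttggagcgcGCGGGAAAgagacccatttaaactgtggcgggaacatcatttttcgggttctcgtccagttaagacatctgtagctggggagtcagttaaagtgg

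Histone genes did not follow the replication genes. Of 13 measured under their current symbols, 6 were at least 2-fold higher after ASTspan8 exosomes and none lower, with a median of 0.94, and 6 were at least 2-fold higher after AS exosomes, with a median of 0.80. The linker histone H1f4 read 11.25 on the control array, 13.37 after AS exosomes and 13.17 after ASTspan8 exosomes. H2ac20 read 12.84, 14.14 and 14.76. Both treated arrays thus stood above the control array. H4c14 was 1.13 higher on its brightest probe and 0.09 on the other. Near-identical copies of histone genes can share a probe's signal, so single members are uncertain.

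Small leucine-rich proteoglycans, which bind collagen fibrils and set their spacing, had the lowest median of the 32 lists, -2.34. Of 10 measured, 8 were at least 2-fold lower and none higher. Omd (osteomodulin) read 13.45 on the control array, 9.85 after AS exosomes and 7.75 after ASTspan8 exosomes, the largest difference of any kept gene at -5.70. Epyc (epiphycan) read 13.43, 11.93 and 8.81. Aspn (asporin) read 12.35, 9.18 and 8.09. In all 3 the AS array lay between the others. Lum (lumican) read 12.91, 10.76 and 9.17, Ogn (osteoglycin) 14.87, 12.62 and 12.39, and Podnl1 9.17, 7.85 and 6.98. Dcn (decorin) read 14.70, 12.78 and 13.51, lower after AS than after ASTspan8 exosomes. Bgn (biglycan), at 18.40, 18.25 and 18.31, and Fmod (fibromodulin), at 14.03, 13.78 and 14.38, stayed near control (both picked after their values were seen). After AS exosomes the list median was -1.71, with 7 of 10 at least 2-fold lower.

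Of the 8 proteoglycan genes at least 2-fold lower, 6 lie in 2 chromosomal clusters, and Podnl1 and Prelp (-1.08) are not among those. The same 6 were the only cluster genes among the 10 measured members, so most of the list lies there whatever its values. In RefSeq's gene order (GRCr8), Ogn, Omd and Aspn follow each other on chromosome 17. Dcn, Lum and Epyc lie on chromosome 7 around Kera, which was too dim to keep. Within the cluster on chromosome 17 the differences ran from -2.48 to -5.70, and within that on chromosome 7 from -1.19 to -4.62.

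Several collagen chains were lower as well. Of 29 collagen chain genes, 8 were at least 2-fold lower and 1 higher, with a median of -0.47. Col3a1, the chain of type III collagen, read 15.82 on the control array, 13.99 after AS exosomes and 12.21 after ASTspan8 exosomes (-3.61). Col1a1, a chain of type I collagen, read 14.67, 14.88 and 12.41, with -1.39 on its second probe, and Col1a2 read 17.40, 17.18 and 16.14. The type I chains were thus near control after AS exosomes and lower after ASTspan8 exosomes, whereas Col3a1 stepped down at both. Col14a1 (8.92, 8.97 and 6.76) was lower on its brightest probe alone, its other probe standing at 0.13 near the floor. Col5a1 stood at -1.29, and Col6a2 (-1.22), Col6a1 (-1.13) and Col12a1 (-1.07), which are not fibrillar, completed the 8. Among other fibrillar chains, Col5a2 stood at -0.95, with -0.94 on its second probe, just short of 2-fold. Col11a1 (-0.09) and Col11a2 (0.20) stood near control (all picked after their values were seen). Col20a1 (6.53, 6.63 and 7.82) was the 1 chain at least 2-fold higher, at a low level.

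Among collagen-processing enzymes, 7 of 23 were at least 2-fold lower and none higher, with a median of -0.53. The procollagen N-protease Adamts2 read 11.92 on the control array, 11.18 after AS exosomes and 9.94 after ASTspan8 exosomes. The cross-linking oxidases Loxl1 (12.81, 12.35 and 11.10) and Lox (12.83, 13.23 and 11.59) were lower. So were P3h1 (-1.17) and P3h4 (-1.24) of the prolyl 3-hydroxylase family and Sparc (-1.21), a collagen-binding protein. Of 27 elastic fibre and matricellular genes, 5 were at least 2-fold lower and none higher. Eln, the elastin gene, read 11.93, 11.38 and 8.81, and Fbln5, which assembles elastic fibres, read 11.65, 10.37 and 9.44. Thbs2 (9.02, 7.07 and 7.18) was as low after AS exosomes as after ASTspan8 exosomes. Emilin1 stood at -1.33, with -0.68 on its second probe, and Nid2 at -2.40, with -0.21 on its dim second probe.

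Not all matrix genes were lower. The fibronectin gene Fn1 read 16.44, 16.46 and 16.41 on the control, AS and ASTspan8 arrays, and Postn stood at 0.11 (both picked after their values were seen). Of 25 matrix proteases and inhibitors, 2 were at least 2-fold lower (8%, against 5.25% of all genes) and none was higher. These were the sheddases Adam10 (-1.50, with -0.37 on its second probe) and Adam9 (-1.06). Of 14 smooth muscle contractile genes 1 was at least 2-fold lower (7.14%), Mylk (-1.27, with -0.23 on its second probe), and the median was -0.05. Over the fibroblast marker list, 8 of 17 were at least 2-fold lower and none higher. Vim read 16.75, 15.73 and 16.11, while Pdgfrb read 13.23, 12.88 and 13.45. Pdgfra, the other PDGF receptor, read 14.97, 14.11 and 12.77, and the calcium-binding protein S100a4 read 18.04, 17.88 and 16.14 (both picked after their values were seen).

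Adhesion receptors and chemokines were mostly at or below control. Of 21 integrins and adhesion molecules, 5 were at least 2-fold lower and none higher. Vcam1, which binds leukocyte integrins, read 15.19 on the control array, 14.43 after AS exosomes and 11.97 after ASTspan8 exosomes. The integrin subunits Itgb5 (13.75, 13.60 and 12.09) and Itga1, a collagen receptor subunit (13.16, 12.68 and 11.54), were lower, and Itga8 (-1.39) and Itga10 (-1.0) completed the 5. Cd44, a hyaluronan receptor, read 12.94, 13.86 and 13.89 on its brightest probe, 0.95 above control, and its 3 dim probes lay between -0.29 and -0.06.

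Of 24 chemokines and cytokines, 6 were at least 2-fold lower and none higher, with a median of -0.15. Cx3cl1, a membrane-bound chemokine, read 16.97, 16.17 and 14.63. The neutrophil chemokine Cxcl1 read 15.44, 15.62 and 13.49, and Ccl2, which draws monocytes, read 15.15, 15.64 and 13.46. Il34, a ligand of the macrophage receptor Csf1r, read 10.40, 8.69 and 7.76. Cxcl1 and Ccl2 were above control after AS exosomes, Cx3cl1 and Il34 below it. Cxcl12 (-1.61) and Ccl19 (-1.11) were the other members at least 2-fold lower.

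Among growth factor pathways, Bmp4, a bone morphogenetic protein, read 13.60 on the control array, 13.60 after AS exosomes and 11.41 after ASTspan8 exosomes, and its secreted antagonist Grem1 stood at -1.30. The target gene Id1 read 8.06, 10.15 and 9.37, and Tgfbr2 (9.42, 9.54 and 10.93) and Skil (7.58, 8.41 and 9.11) were higher. The list of 27 TGF-beta, BMP and activin genes held 3 at least 2-fold higher (11.1%) and 2 lower (7.41%), with a median of 0.02. Over all genes the shares were 5.16% and 5.25%. The Wnt antagonist Sfrp2 (9.63, 8.53 and 7.40) was lower and Sfrp4 (6.42, 6.66 and 7.90) higher, 1 each of 12 Wnt regulators (8.33% each way). Tspan8 read 6.65, 6.30 and 6.44, near the floor on all 3 RF arrays, against 10.16 and 10.28 in the RNA of ASTspan8 exosomes. Of 22 tetraspanins and their partners, 3 (13.6%) were at least 2-fold lower, Tspan17 (11.41, 10.96 and 9.49), Tspan7 (-1.24) and Tspan2 (-1.11). The 1 higher (4.55%) was Tspan5 (9.75, 10.24 and 11.12).

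Clock genes formed a further group with higher values. Of 14, 6 were at least 2-fold higher and none lower, with a median of 0.80, against 0.16 after AS exosomes. Ciart, a repressor of the clock, read 6.87 on the control array, 8.02 after AS exosomes and 10.35 after ASTspan8 exosomes. Nr1d1 (REV-ERB alpha), which represses Bmal1, read 8.17, 8.76 and 10.91. Bmal1 itself stood above control, at 0.96 and at 0.67 on its second probe (picked after its values were seen). The repressor Bhlhe40, also induced by hypoxia and stress, read 8.26, 9.19 and 10.97. Cry1 read 8.04, 8.51 and 10.37, and Dbp, an output factor, read 13.28, 13.00 and 14.79 with all 3 probes between 1.41 and 1.66. Bhlhe41 (1.33) was the sixth. The sources used here do not give the hour at which cells were lysed, and its part was not tested.

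Metabolic lists were mixed. Of 27 glycolysis and hypoxia-induced genes, 6 (22.2%) were at least 2-fold higher and 2 (7.41%) lower, against 5.16% and 5.25% of all genes. Vegfa, the angiogenic growth factor, read 11.17, 11.89 and 12.94 on the control, AS and ASTspan8 arrays, and its 4 probes lay between 1.68 and 2.76. The glucose carrier Slc2a1 read 11.86, 13.36 and 13.55, and the glycolytic enzymes Pfkp (1.40), Eno2 (1.37, with 0.95 on its second probe) and Hk2 (1.22) were higher too. Ankrd37, a hypoxia-induced gene, read 9.25, 9.43 and 7.17. Over the list, 16 members were below control and 10 above, with a median of -0.12. Core glycolytic enzymes lay on both sides. Tpi1 stood at -0.91, Gapdh at -0.86, Ldha at -0.66, Eno1 at -0.45 and Pfkl at -0.36. Pkm stood at 0.56, Hk1 at 0.55 and Aldoa at 0.33 (all these enzymes were picked after their values were seen). After AS exosomes the list median was 0.45.

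Of 20 cholesterol biosynthesis genes, 5 were at least 2-fold lower and 1 higher, with a median of -0.39. Acat2, which makes acetoacetyl-CoA, read 13.14 on the control array, 13.71 after AS exosomes and 11.21 after ASTspan8 exosomes, while its dim second probe gave -0.25. The sterol carrier Stard4 stood at -1.73 and -0.94 on its second probe, and Idi1 at -1.34. Insig1, which holds the sterol sensor back in the ER, was the 1 member higher, with 11.71, 12.24 and 13.57.

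Mitochondrial respiration genes stood slightly lower as a list. Of 77, 61 were below control, and the median was -0.28. At least 2-fold lower were 5 (6.49%), near the 5.25% of all genes. Those 5 were Uqcrh of complex III (14.93, 14.72 and 12.95), Ndufa4 (-1.28), Atp5mf (-1.23), Cox7b (-1.15) and Cox7a2 (-1.08). Cox6a2, the muscle form of a cytochrome c oxidase subunit, stood far apart from the rest of the list with 6.58, 7.33 and 10.91. Of 77 cytosolic ribosomal protein genes, 1 was at least 2-fold apart, Rpl10l1 (10.10, 10.39 and 11.19), and the median was 0.11. Of 24 antioxidant and glutathione genes, Gpx1 (1.15), Nfe2l2 (1.08) and Sqstm1 were at least 2-fold higher and Me1 (11.99, 11.87 and 10.24) and Sod3 (15.32, 14.86 and 13.91) lower. These were 12.5% and 8.33% of the list, against 5.16% and 5.25% of all genes. Sqstm1 had probes of opposite sign, 1.05 and -0.71.

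**Figure D3:**
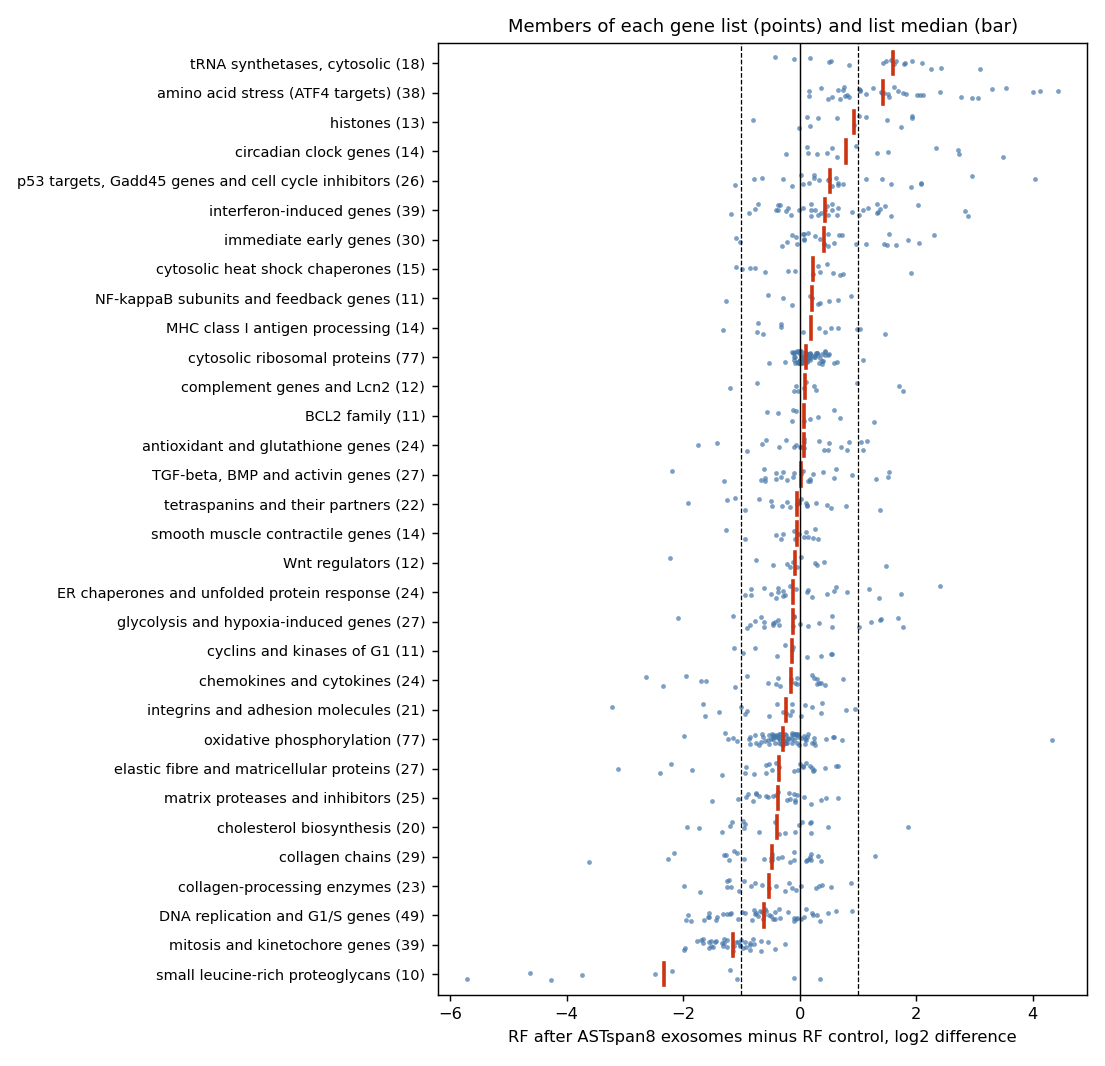
Difference of each measured member (points) of 32 gene lists between RF after ASTspan8 exosomes and RF control, in log2, with the list median as a bar and dashed lines at 2-fold. Numbers in brackets are measured members. tRNA synthetases and amino acid stress genes stand at the top, mitosis genes and small leucine-rich proteoglycans at the bottom.

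Several genes with the largest differences lay outside these lists. The drug efflux pump Abcb1a read 6.46 on the control array, 7.31 after AS exosomes and 9.52 after ASTspan8 exosomes, and Rell2, a TNF receptor-binding protein, read 9.77, 10.34 and 12.68. Both were highest after ASTspan8 exosomes. On the lower side stood enzymes that clear esters, aldehydes and amines. The carboxylesterase Ces1d read 11.92, 7.68 and 7.19, the aldehyde dehydrogenase Aldh3a1 read 14.35, 13.92 and 10.33, and the amine oxidase Aoc3 read 12.46, 10.38 and 9.22. Ces1d was therefore already low after AS exosomes, Aldh3a1 was not. The microsomal glutathione transferase Mgst3 read 11.11, 10.80 and 8.29. The G-protein subunit Gna14 read 11.67, 10.30 and 7.94, with -1.65 on its second probe, and the membrane protein Tm4sf1 read 15.22, 14.01 and 11.74. Among secreted proteins, the growth factor Ptn (pleiotrophin) read 10.15, 8.78 and 7.02 and Kazald1, an IGF-binding-protein-related protein of bone, read 15.29, 14.45 and 12.43. Most of these genes stood lower after AS exosomes too, with -0.31 for Mgst3 and -4.24 for Ces1d.

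Whether EC responded like RF was tested with limma on all 11 arrays, as the difference between the RF response and the EC response to ASTspan8 exosomes. Of 18619 probes, 5866 passed an adjusted p of 0.05 (31.5%), with RF above EC in 2898 (15.6%) and below in 2968 (15.9%). In genes, 3729 passed (33.7%), of which 1805 had RF above EC (16.3%) and 1924 had RF below (17.4%). Single arrays are there assumed to vary as little as the duplicates, so these p-values measure the spread between duplicate arrays, which may be technical. When either EC duplicate was left out, no probe passed by limma, with 5658 or 5624 at an unadjusted p under 0.05. The 15 highest and 15 lowest genes were chosen by the RF difference that this test contains, so their values in both recipients are given as a description.

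By median, amino acid stress genes stood above control in RF and below it in EC. Of 38 amino acid stress genes, 32 passed with RF above EC and none with RF below, against 16.3% of all genes, and the EC medians were -0.635 after ASTspan8 and -0.81 after AS exosomes. Of 18 tRNA synthetases, 13 passed with RF above EC and 1 with RF below. Gdf15 read 10.63 on the EC control array and 9.28 on the second EC array after ASTspan8 exosomes, against 7.88 and 12.31 in RF. The EC control array stood high for these genes: the median level of the amino acid stress list was 10.62 on it, 9.66, 9.89 and 9.90 on the other EC arrays, and 9.64 on the RF control array. RF after ASTspan8 exosomes, at 11.54, stood above all of them. Immediate early genes showed the same feature more strongly, with a list median of 11.85 on the EC control array against 9.43 to 10.22 on the other EC arrays, and 21 of 30 passed with RF above EC. The part of the EC control array in these counts was not tested.

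Interferon genes stood higher by median in both recipients, as histones did. The EC median was 0.705, with 14 of 39 at least 2-fold higher, against 2.09% of all genes, and none 2-fold lower, against 1.12%. For Rsad2 the RF response of 2.88 and the EC response of 2.96 differed by -0.08 ± 0.13 (SE of the limma fit, adjusted p = 0.686), and for Irf7 1.57 and 1.71 differed by -0.14 ± 0.13 (adjusted p = 0.472). Neither difference passed, which does not show the responses to be equal. In 14 of 39 genes RF stood below EC past the threshold, against 17.4% of all genes, and in 5 above it, against 16.3%. Isg15, the ubiquitin-like antiviral protein, picked after its values were seen, was 1.01 higher in RF and 2.55 in EC (difference -1.54 by limma, adjusted p = 0.00914), and Usp18 was 2.84 higher in RF and 1.40 in EC (difference 1.44, adjusted p = 0.0371).

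Matrix and mitosis genes differed in the other direction. Of 10 small leucine-rich proteoglycans 8 passed with RF below EC and none above, against 17.4% of all genes, and the EC median was 0.1625. For mitosis genes, 28 of 39 passed with RF below EC and none above, with EC medians of -0.225 after ASTspan8 and 0.54 after AS exosomes. Among replication genes, 25 of 49 passed with RF below EC and 5 above, the latter against 16.3% of all genes. Eln was 3.12 lower in RF on the log2 scale and 1.34 higher in EC, and Vcam1 3.22 lower and 0.535 higher. Lum and Epyc were lower in both, with -0.89 and -0.765 in EC. Histones were similar in both recipients by median (0.94 in RF, 0.985 in EC), and H1f4, at 1.92 and 1.95, differed by -0.03 ± 0.23 (adjusted p = 0.954 by limma).

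**Figure D4:**
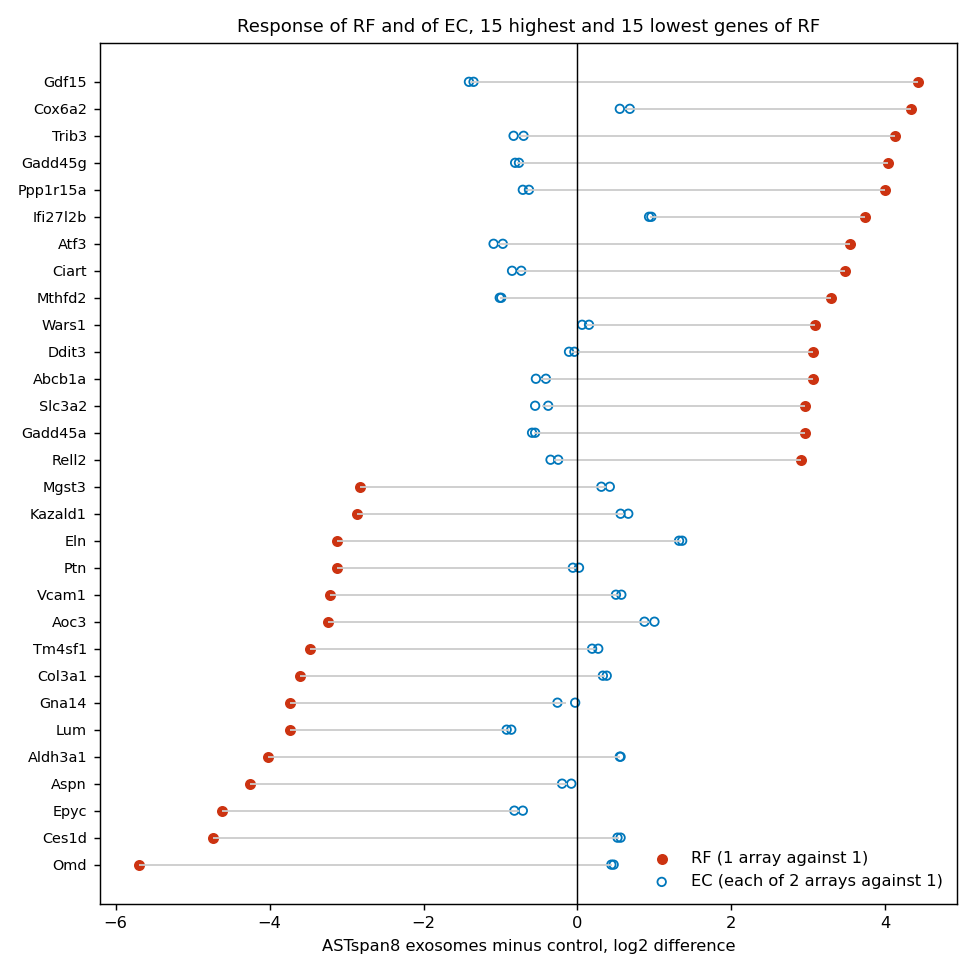
Log2 difference from control after ASTspan8 exosomes in RF (filled, 1 array against 1) and in EC (open, each of 2 arrays against 1 control) for the 15 highest and 15 lowest genes of RF. Every filled point lies far from the open points of its gene. The open points run from -1.41 to 1.36.

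Agreement between probes gives a check within the arrays. Of 1862 genes with 2 or more kept probes, 100 were at least 2-fold higher by the brightest. The second probe was also 2-fold higher in 46 of these, against 4.08% of all such genes, had the same sign in 96 and was 2-fold lower in none. Of the 112 genes that were 2-fold lower by the brightest probe, the second was also 2-fold lower in 41, against 3.22%, and had the same sign in 108. The median distance between both probes was 0.22. Of the 30 most extreme genes, 4 had more than 1 kept probe. Probes of 1 gene share the same RNA and array, so this agreement is no replicate of the treatment.

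**Figure D5:**
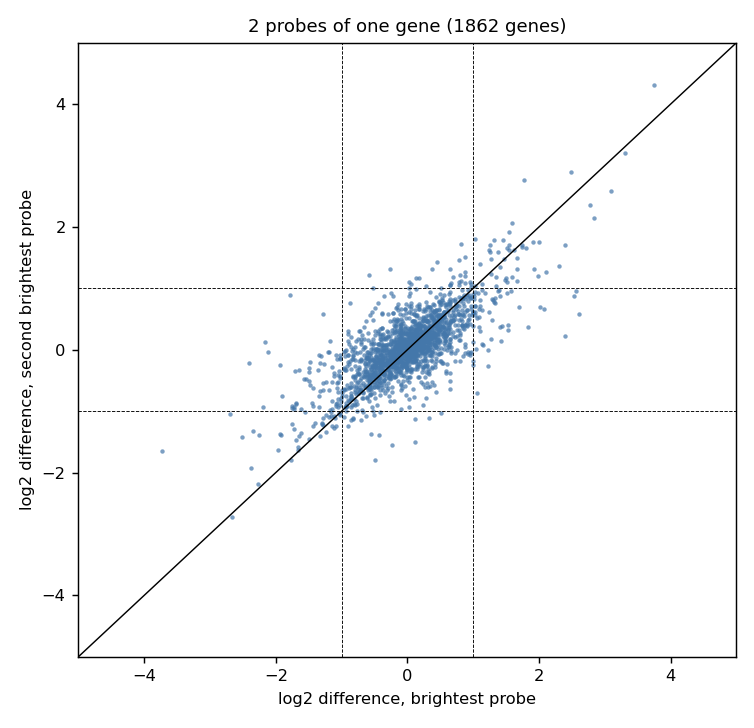
Log2 difference between RF after ASTspan8 exosomes and RF control by the brightest (x axis) and the second brightest probe (y axis) of the same gene, for 1862 genes. The solid line marks equal differences and the dashed lines 2-fold. No gene lies past 2-fold in opposite directions.

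RNA of the exosomes themselves was measured on 2 arrays. It stood above the RF control level in 326 of the 571 genes at least 2-fold higher in RF (57.1%). For the 581 genes at least 2-fold lower this held in 215 (37%), and for all genes in 47.9%. The RF control level enters both sides of that count, and it was lower for the higher genes (median 9.81) than for the lower ones (10.97). The median level in exosome RNA was 10.11 for the higher genes, 10.42 for the lower and 9.53 for all. Among the 15 highest, Gdf15 read 15.08 and 15.02 there and Gadd45g 14.93 and 14.92, while Abcb1a read 5.96 and 6.12 and Ciart 7.55 and 7.87. Among the 15 lowest, Omd read 6.40 and 6.17 and Lum 6.08 and 6.32, while Eln read 13.74 and 13.65 and Vcam1 12.84 and 12.97. Genes abundant in exosome RNA and genes near the floor in it thus stood at both ends. These examples were picked after their values were seen, and the part of RNA carried by the exosomes was not tested.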

How the data were processed

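RNA of cultured rat cells and of exosomes was hybridised, Cy3-labelled, to 1-colour rat arrays with 1 sample each. The deposited intensity values are linear. Their array medians lay between 156 and 165, and from this likeness they were taken as already normalized between arrays by the authors. The highest value, 422913, was the same on every array, exosome arrays included. The sources used here do not give the method. On arrays made so alike, a shift of all genes together cannot be seen. No counts exist for arrays, so their number limits the precision.

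From the deposited intensity values, the following was computed. Values were floored at the 1st percentile (62.2), and log2 was taken. Of 30367 probes, 18619 with a mean percentile above 50 within the arrays of at least 1 of 9 groups were kept and 11748 left out. Genes were named from the platform annotation updated through RefSeq, which gave 1 gene for 20369 probes, and the brightest kept probe stood for a gene. A further 5829 named genes were too dim. RF arrays were compared as differences, with no test. The RF minus EC difference was tested with limma 3.58.1 (R 4.3.3) on 9 group means of 11 arrays with 2 residual degrees of freedom and Benjamini-Hochberg adjustment at 0.05, and the script was tested on simulated data. Genes named were the 15 highest and 15 lowest, and up to 6 genes of each list at least 2-fold from control with the largest differences, or the 2 with the largest where fewer than 2 were 2-fold apart, and the identity markers; others are said to be picked after their values were seen. The members, lists and markers were chosen with earlier results of these data known. Alternatives varied the floor, filter, scaling, probe choice, threshold and arrays.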

Additional observations from a re-analysis of the deposited data

Results flagged for a closer look

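The 15 genes highest and the 15 lowest in RF after ASTspan8 exosomes were chosen by the RF difference itself, and their RF and EC responses are set side by side here. In limma's test of RF minus EC their adjusted p lay between 0.00855 and 0.0113, but that test contains the RF difference they were chosen by, so it is no independent support. Values are the log2 difference from control in RF minus that in EC.

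Among genes of the amino acid stress and growth-arrest lists, the response difference was 5.81 for Gdf15, 4.89 for Trib3, 4.82 for Gadd45g, 4.67 for Ppp1r15a, 4.57 for Atf3, 4.30 for Mthfd2, 3.52 for Gadd45a, 3.42 for Slc3a2, 3.14 for Ddit3 and 2.98 for the synthetase Wars1. Among the other higher genes it was 4.27 for Ciart, 3.72 for Cox6a2, 3.54 for Abcb1a, 3.21 for Rell2 and 2.80 for Ifi27l2b. In each of these, RF stood above control by more than EC did.

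Among matrix and adhesion genes, the response difference was -6.16 for Omd, -4.46 for Eln, -4.12 for Aspn, -3.96 for Col3a1, -3.86 for Epyc, -3.76 for Vcam1 and -2.85 for Lum. Among the remaining lower genes it was -5.27 for Ces1d, -4.58 for Aldh3a1, -4.18 for Aoc3, -3.71 for Tm4sf1, -3.58 for Gna14, -3.47 for Kazald1, -3.18 for Mgst3 and -3.11 for Ptn. The test rests on the EC duplicates: with either left out, none of the 30 passed (adjusted p = 0.113).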

How the results depend on the processing

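No result changed direction under any alternative run. At a threshold of 1.5-fold, 2602 probes were higher and 2569 lower after ASTspan8 exosomes, and at 4-fold 95 and 79. The RF minus EC test by limma called 3404 probes with no filter on dim probes. Leaving out 1 duplicate array gave 0 to 6666 calls, with 0 when either EC array after ASTspan8 exosomes was left out and 6666 when either exosome array was; the lone array is then assumed to vary like the other groups. Of 37 list medians, 11 moved by more than the spread of duplicates with a filter at the 75th percentile, 9 with no filter and 2 with the mean of a gene's probes, which also moved 26 of 167 named genes. The cause was not tested. No paired analysis was possible because the RF arrays are single, and replicate numbers only mark duplicates of 2 groups that are not compared. Signal near the floor limits low genes: a difference from a level near 5.96 understates the true one.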

Other observations

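Single genes, picked after their values were seen, are given as values, and nothing is read from them about a group. All lie outside the lists except Nqo1, of the antioxidant list, and Hspd1, of the heat shock list. The carboxylesterase Ces1a read 12.93 on the RF control array, 9.62 after AS exosomes and 10.26 after ASTspan8 exosomes. The aldehyde oxidase Aox1 read 13.25, 10.51 and 10.93 in the same order. In both genes the AS array was the lowest. Among other enzymes of foreign compounds, the quinone reductase Nqo1 stood at 0.42 and the glutathione transferase Gstm4 at 0.49 against control after ASTspan8 exosomes. The glutathione transferase Gsta3 stood at -1.48, with -0.20 on its second probe. Ugt1a6 stood at -0.71, with -1.15 on its second probe.

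The mitochondrial chaperone Hspa9 read 10.21, 11.02 and 12.85, and the mitochondrial protease Lonp1 read 12.46, 12.70 and 14.69. The chaperonin Hspd1, at 13.97, 14.12 and 14.71, did not reach 2-fold.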
